A study of Homo sapiens with 6 samples.

Results

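Chromosome 19 carries 249 protein-coding genes whose names start with ZNF, of 58735 genes in the deposited tables, and their transcripts were followed in cells given DNAJC12 or an empty vector. The members are defined by chromosome, biotype and name alone, a rule that uses no measured value. The rule was set with earlier results of these data known. RNA was sequenced from MDA-MB-231, a human cell line of triple-negative breast cancer. Cells of 3 libraries had received DNAJC12, the gene of a J-domain co-chaperone, on a vector (overexpression), and cells of 3 more had received that vector empty. The labels name no further agent, time or clone, and do not say that replicates were separate cultures. P-values therefore measure the spread between these libraries, which may be technical.

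Most ZNF genes of chromosome 19 encode C2H2 zinc finger proteins, in which a zinc ion holds each finger together and strings of fingers read DNA. Many also carry a KRAB domain, which binds the co-repressor TRIM28 and through it the histone methyltransferase SETDB1, and many of these factors silence transposable elements. The genes arose by repeated tandem duplication, so relatives lie side by side along the chromosome and their fingers are alike in sequence.

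The fingers themselves can be seen in the coding sequences of GENCODE 29 on GRCh38. Neighbouring fingers are joined by a conserved linker, searched here on the sense strand as the 14-base motif ACNGGNGANAANCC in the longest coding sequence of each gene. At least 1 linker was found in 214 of 248 members with a coding sequence (86.3%), and the median was 6. It was found in 66.4% of 265 protein-coding ZNF genes of other chromosomes. Of all 19411 protein-coding genes with a coding sequence that are not members, a set that includes those 265, 1.76% had one. The same 14 letters, ACTGGAGAGAAACC, made up 631 of the 1501 linkers (42.0%). Of 1287 steps between consecutive linkers of a member, 825 (64.1%) were exactly 84 bases, the length of 28 codons. The 6 units below each run from a linker to the base before the next linker. They are shown because they differ in base composition, along which the libraries also differed, with the linker in capitals.
ZNF787: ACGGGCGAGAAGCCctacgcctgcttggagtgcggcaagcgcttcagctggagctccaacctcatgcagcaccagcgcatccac
ZNF460: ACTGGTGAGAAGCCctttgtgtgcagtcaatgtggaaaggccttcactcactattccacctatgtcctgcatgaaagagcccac
ZNF439: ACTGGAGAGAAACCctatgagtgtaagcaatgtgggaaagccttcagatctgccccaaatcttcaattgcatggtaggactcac
ZNF146: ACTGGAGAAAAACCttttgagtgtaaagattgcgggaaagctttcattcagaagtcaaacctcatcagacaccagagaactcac
ZNF841: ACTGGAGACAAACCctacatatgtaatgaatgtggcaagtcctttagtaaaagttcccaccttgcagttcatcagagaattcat
ZNF440: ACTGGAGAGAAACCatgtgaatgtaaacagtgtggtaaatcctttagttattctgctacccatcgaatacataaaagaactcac

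Every printed unit lies in the last exon of its coding transcript. The ZNF787 unit is at chr19:56088740-56088823 on the minus strand and is 64.3% GC. The ZNF460 unit, on the plus strand at chr19:57291616-57291699, holds as many G and C as A and T. The ZNF439 unit (plus strand, chr19:11868282-11868365) is 46.4% GC and the ZNF146 unit (plus strand, chr19:36236723-36236806) 41.7%. The ZNF841 unit (minus strand, chr19:52066781-52066864) is 39.3% GC and the ZNF440 unit (plus strand, chr19:11831843-11831926) 36.9%. Over all 825 units of 84 bases the median was 41.7% GC, with a range of 31.0 to 70.2%.

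Members with more linkers had a lower transcript GC content, the share of G and C over all annotated transcripts of the gene. The median GC content of tested members was 56.9% in the 32 members with no linker and 45.5% in the 64 with 1 to 5. It was 42.7% in the 74 with 6 to 10 and 42.4% in the 33 with 11 or more. Across the 203 tested members with known coding sequence, Spearman's rho of linker number and transcript GC was -0.56, a description over genes that share ancestry. ZNF71 lay apart from the rest, with 11 linkers and 54.2% GC, and was picked out after its values were seen. The linker count is given here as a property of the sequence and was not tested against expression.

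**Figure D1:**
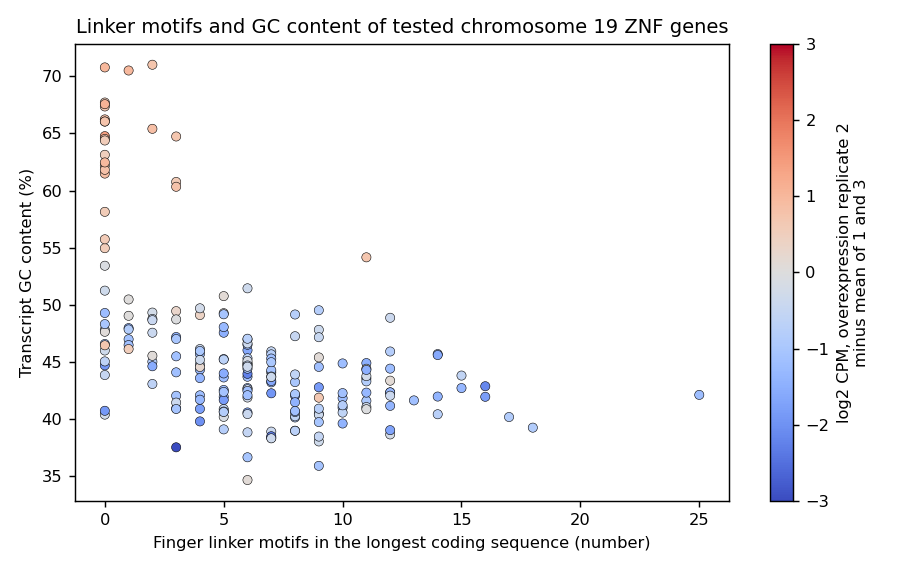
Transcript GC content (%, vertical axis) against the number of finger linker motifs in the longest coding sequence (horizontal axis) of the tested chromosome 19 ZNF genes, 1 point per gene. Colour gives log2 CPM of overexpression replicate 2 minus the mean of overexpression replicates 1 and 3. The 32 members without a linker reach the highest GC content and are mostly red (median gap 0.53), and members with 11 or more linkers are mostly blue (median gap -0.92). Members with 1 to 5 and 6 to 10 linkers had median gaps of -0.82 and -0.8.

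Members were low in these cells, and in bulk RNA fewer expressing cells and less RNA per cell cannot be told apart. Of the 249, 19 had no count in any library and 212 had counts in all 6, and 217 to 223 were detected in each library. The edgeR filter on low counts left 203 members to test. The 46 that were not tested include 27 with some counts, at most 20 in a library. Transcripts of all members together took 0.193, 0.149 and 0.172% of the counts of overexpression replicates 1 to 3, against 0.168, 0.156 and 0.172% of those of empty vector replicates 1 to 3. These are shares of unscaled totals. With TMM scaling, the member sums were 1776, 1749 and 1700 CPM with DNAJC12 and 1651, 1571 and 1645 CPM with the empty vector. Per length, the median level of tested members was 0.748 FPKM, lower than the 3.23 FPKM of all tested genes, the 0.999 FPKM of tested ZNF genes elsewhere and the 9.91 FPKM of other protein-coding genes of chromosome 19. In all, 76 of the 203 tested members averaged at least 1 FPKM.

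The 6 most abundant members stood apart in base composition. ZNF787 averaged 41.9 FPKM over the 6 libraries, ZNF428 22.1, ZNF581 21.9, ZNF580 16.9, ZNF524 16.3 and ZNF358 12.6 FPKM. Their transcripts were 61.8 to 67.7% GC, while the median tested member was 44.4% GC. In FPKM, ZNF787 had 33.0, 71.7 and 46.7 in overexpression replicates 1 to 3, and 23.7, 39.4 and 36.8 in empty vector replicates 1 to 3. Overexpression replicate 2 was the highest library for this gene, and the groups overlapped. ZNF787 held 2 linkers and the other 5 held none. ZNF580 and ZNF581 share exons on the same strand with each other and with CCDC106, so reads may have been split between them. In all, 140 of the 249 members overlap an exon of another gene, 85 on the same strand and 79 antisense. The strand setting of the counting is not named in any source used here, and fingers of close relatives are alike, so values of such members are uncertain.

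The targeted gene matched the labels, and most markers of the cell line did. Overexpression libraries 1 to 3 held 522, 523 and 492 counts of DNAJC12, while the empty vector libraries held 1, 0 and 0. Library totals ran from 17967283 to 18887497 counts. VIM, a mesenchymal filament, had at least 164 FPKM and the hormone receptor genes ESR1 and PGR had at most 2 and 3 counts in a library. ERBB2, a growth factor receptor gene listed as low or absent in this line, had 5.86 to 11.7 FPKM. The leukocyte markers PTPRC, CD3E and MS4A1 had at most 2 counts, while CD14 had 97 to 200 and the endothelial receptor KDR 25 to 82.

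The libraries numbered 2 differed from the others in these genes, and the overexpression one differed more. Levels between libraries are given in CPM, the count scaled to a common library size by the TMM method. ZNF440 had 3.86, 0.632 and 2.92 CPM in overexpression replicates 1 to 3, and 2.84, 3.23 and 3.09 CPM in empty vector replicates 1 to 3. ZNF841 had 13.7, 2.47 and 9.51 CPM with DNAJC12 and 9.87, 6.45 and 9.70 CPM with the empty vector. ZNF529 had 6.31, 1.20 and 4.28 CPM with DNAJC12 and 2.90, 1.39 and 3.68 CPM with the empty vector. These 3 genes were chosen because overexpression replicate 2 lay furthest below replicates 1 and 3, among members averaging 2 CPM or more. For all 3 it was the lowest of the 6 libraries, which the choice favours. ZNF146, a protein that is made almost wholly of fingers, was also lowest in overexpression replicate 2. Its level was 44.0, 9.80 and 26.8 CPM with DNAJC12 and 23.6, 13.5 and 21.96 CPM with the empty vector.

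The 3 members chosen because overexpression replicate 2 lay furthest above replicates 1 and 3, at the same level, had GC-rich transcripts. ZNF296 (67.6% GC) had 6.41, 15.7 and 8.46 CPM in overexpression replicates 1 to 3, and 6.92, 11.5 and 7.83 CPM in empty vector replicates 1 to 3. ZNF628 (70.8% GC) had 24.6, 56.4 and 32.3 CPM with DNAJC12 and 24.6, 37.0 and 28.7 CPM with the empty vector. ZNF446, a KRAB and SCAN domain factor (62.5% GC), had 5.16, 12.2 and 7.42 CPM with DNAJC12 and 7.57, 7.96 and 7.19 CPM with the empty vector. Overexpression replicate 2 was the highest of the 6 libraries for all 3 genes, which the choice favours.

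The replicate 2 gap, log2 CPM of replicate 2 minus the mean of replicates 1 and 3 of its group, was -2.23 for ZNF440, -2.16 for ZNF841 and -2.02 for ZNF529 with DNAJC12. These were the lowest among members averaging 2 CPM or more. The highest were 1.08 for ZNF296, 1.0 for ZNF628 and 0.97 for ZNF446. Over the 203 tested members the median gap was -0.76 with DNAJC12 and -0.35 with the empty vector, and over all tested genes it was 0.03 and 0.00. The gap was below 0 in 162 members (79.8%) with DNAJC12 and in 144 (70.9%) with the empty vector. ZNF genes of other chromosomes had medians of -0.50 and -0.07. Other protein-coding genes of chromosome 19, whose median transcript GC was 60.8%, had medians of 0.70 and 0.25. The members thus lay on the opposite side of 0 from the genes that share their chromosome.

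Across members the gap followed GC content in the same direction as across all genes. Pearson's r of gap and transcript GC over the 203 members was 0.69 with DNAJC12 and 0.54 with the empty vector, and over all tested genes 0.78 and 0.59. These are descriptions across genes of the same libraries. The gaps of the 2 groups correlated with each other at r = 0.47 over members. The members are 34.7 to 71.0% GC, and all tested genes were divided by transcript GC into 5 classes of near-equal size, at 42.4, 47.1, 52.5 and 58.6%.

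In the lower 2 classes lay 147 tested members. Their summed level was 878, 414 and 662 CPM in overexpression replicates 1 to 3, and 711, 481 and 622 CPM in empty vector replicates 1 to 3. Overexpression replicate 2 was the lowest of the 6 libraries in 89 of the 147, and overexpression replicate 1 the highest in 85. The median gap was -1.0 with DNAJC12 and -0.46 with the empty vector. In the upper 2 classes lay 26 tested members, with summed levels of 601, 1098 and 764 CPM with DNAJC12 and 600, 792 and 724 CPM with the empty vector. Overexpression replicate 2 was the highest library in 22 of the 26, and the median gap was 0.73 with DNAJC12 and 0.24 with the empty vector. The 30 members of the middle class had median gaps of -0.40 and -0.10, while the 2875 other tested genes of that class had medians of 0.05 and 0.00. In the next lower class the 76 members had median gaps of -0.98 with DNAJC12 and -0.43 with the empty vector, and the 2827 other genes -0.64 and -0.22. In the lowest class the medians were -1.05 and -0.61 for members and -1.09 and -0.41 for other genes. No test was run on these differences.

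**Figure D2:**
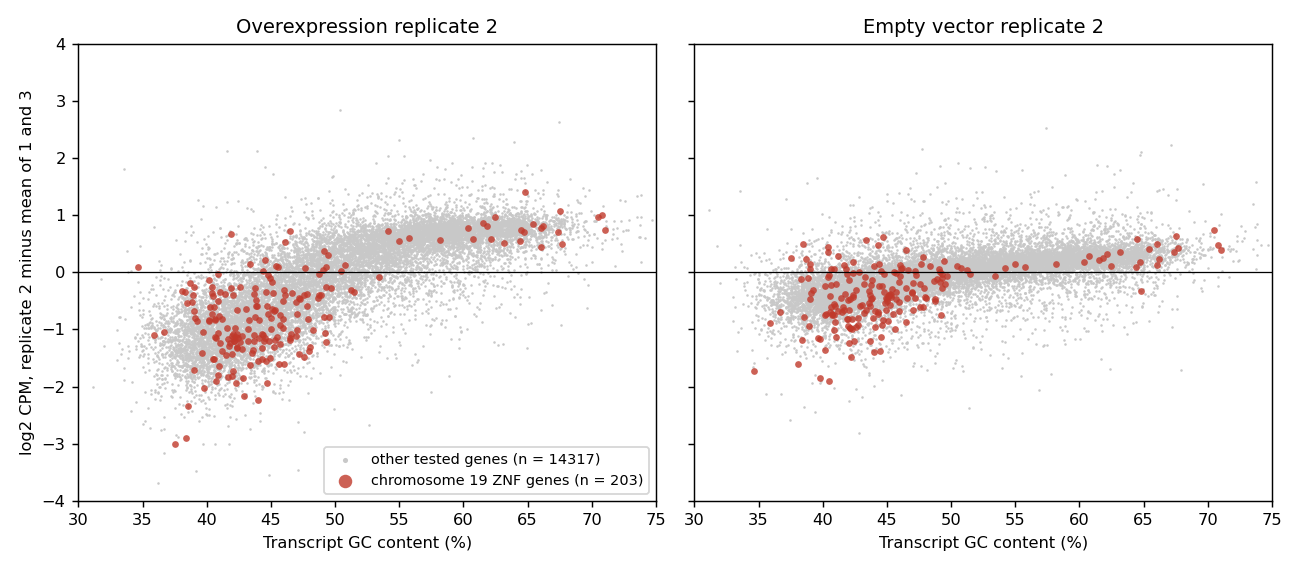
Replicate 2 gap (log2 CPM of replicate 2 minus the mean of replicates 1 and 3 of the group, vertical axis) against transcript GC content (%, horizontal axis), with overexpression on the left and empty vector on the right. Red points are the 203 tested chromosome 19 ZNF genes and grey points the 14317 other tested genes. Most members sit at low GC and below 0, with medians of -0.76 with DNAJC12 and -0.35 with the empty vector, and the few GC-rich members sit above 0.

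The main edgeR test, of all 6 libraries with the low-count filter and no GC correction, called no chromosome 19 ZNF gene different between groups. The edgeR quasi-likelihood test, adjusted over 14520 genes by the Benjamini-Hochberg method, called 0 of 203 members at an adjusted p of 0.05, and 181 of all tested genes (1.25%). It called 0 of 218 ZNF genes elsewhere and 11 of 731 other protein-coding genes of chromosome 19. At an unadjusted p under 0.05 there were 13 members (6.40%), 4 higher and 9 lower with DNAJC12, and 14.1% of all tested genes. DESeq2 called 1 member, ZNF460, higher with DNAJC12, with 3.89% of all genes called. Limma on log2 FPKM called none, with 1.24% of all genes called at either pseudocount and 0.0439% without a filter. The median standard error of a log2 fold change was 0.37 for members and 0.29 for all tested genes.

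The fold changes of members centred near those of all genes. The median log2 fold change, overexpression over empty vector, was 0.07 over members and 0.05 over all tested genes, and 118 members lay above 0 and 85 below. It was 0.04 over ZNF genes elsewhere and -0.07 over other protein-coding genes of chromosome 19. From the tenth to the ninetieth percentile, members ran from -0.54 to 0.54 and all tested genes from -0.55 to 0.67. A change of at least 2-fold was fitted for 5 members (2.46%) and for 6.48% of all tested genes. In 20 members (9.85%) the groups did not overlap in CPM, 7 higher and 13 lower with DNAJC12, and this held for 20.1% of all tested genes, 9.26% higher and 10.8% lower.

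The sign of the members' median turned on which library was left out. Leaving out overexpression replicate 2 gave 0.23, leaving out overexpression replicate 1 gave -0.14, and leaving out empty vector replicate 2 gave -0.08. Among the 147 members of low GC it was 0.08 with all libraries, 0.33 without overexpression replicate 2 and -0.21 without overexpression replicate 1. Among the 26 members of high GC it was 0.19, -0.18 and 0.36. Leaving out overexpression replicate 1 turned the sign in the low class, and leaving out overexpression replicate 2 turned it in the high class. Other tested genes of the lowest and highest GC classes moved in the same directions. In the lowest class they gave 0.24 with all libraries, 0.53 without overexpression replicate 2 and -0.09 without overexpression replicate 1. Members of that class gave 0.21, 0.48 and -0.13. In the highest class other genes gave -0.02, -0.29 and 0.14, and members 0.21, -0.1 and 0.38. Differences between members and other genes were not tested.

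Among members whose groups did not overlap and that averaged 2 CPM or more in the higher group, ZNF460 had the largest positive fold change, though it missed the threshold. It had 10.2, 5.25 and 7.52 CPM in overexpression replicates 1 to 3, and 3.06, 2.78 and 3.30 CPM in empty vector replicates 1 to 3. All 3 overexpression libraries lay above all 3 empty vector libraries, and the spread within overexpression was the wider. Its log2 fold change was 1.33 ± 0.31 (SE), with an adjusted p of 0.0818 in the edgeR test, the smallest of any member. ZNF431 had 8.97, 6.95 and 9.30 CPM with DNAJC12 and 5.53, 3.12 and 6.71 CPM with the empty vector (log2 fold change 0.72 ± 0.33 SE, edgeR adjusted p = 0.372). ZNF181 had 4.01, 3.54 and 3.76 CPM with DNAJC12 and 2.52, 2.28 and 2.88 CPM with the empty vector, a log2 fold change of 0.56. ZNF418 and ZNF132 had log2 fold changes of 0.54 and 0.42 and edgeR adjusted p of 0.465 and 0.554. The ZNF132 libraries ran from 3.73 to 5.59 CPM with DNAJC12 and from 3.12 to 3.62 CPM with the empty vector, a gap smaller than the spread among its overexpression libraries.

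At the other end, ZNF792 and ZNF101 were lower with DNAJC12 and close between replicates. ZNF792 had 20.7, 19.8 and 18.1 CPM in overexpression replicates 1 to 3, and 30.9, 33.2 and 30.6 CPM in empty vector replicates 1 to 3 (log2 fold change -0.69 ± 0.21 SE, edgeR adjusted p = 0.170). ZNF101 had 8.42, 7.90 and 6.53 CPM with DNAJC12, and averaged 12.8 ± 0.445 CPM (SD, n = 3) with the empty vector (log2 fold change -0.75 ± 0.25 SE, edgeR adjusted p = 0.203). For both genes the difference between groups was several times the spread within them, and replicate 2 did not stand apart in either group. Their replicate 2 gaps with DNAJC12 were 0.03 and 0.09.

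The largest fitted falls under the same rule were at low levels. ZNF555 had 1.45, 0.569 and 0.836 CPM with DNAJC12 and 3.97, 1.67 and 1.86 CPM with the empty vector, a log2 fold change of -1.37 ± 0.47 (SE) with an edgeR adjusted p of 0.223. Its lowest empty vector library was close to its highest overexpression library. ZNF439 had 2.20, 1.08 and 1.57 CPM with DNAJC12 and 3.11, 2.84 and 2.66 CPM with the empty vector (log2 fold change -0.82). ZNF93, known for silencing LINE elements, had 1.55, 0.822 and 1.57 CPM with DNAJC12 and 2.09, 2.17 and 2.56 CPM with the empty vector (log2 fold change -0.78). None of the 3 passed the threshold.

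**Figure D3:**
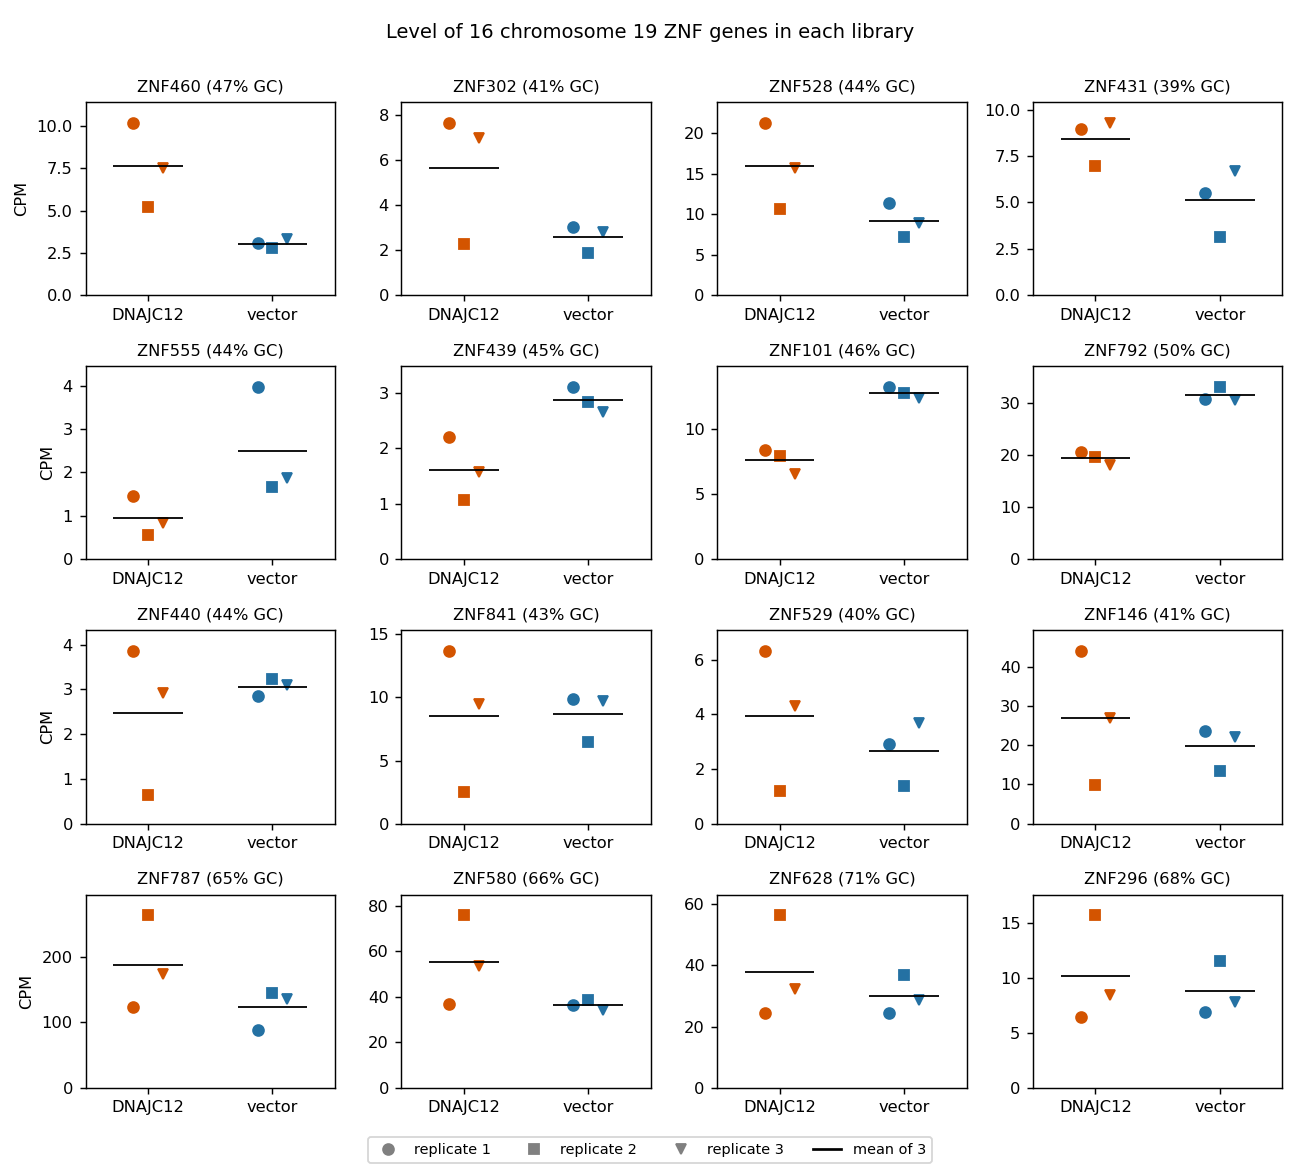
Level (CPM, vertical axis from 0) of 16 chromosome 19 ZNF genes in each library, with overexpression (orange) left of empty vector (blue), the symbol giving the replicate number and the line the mean of 3. Panel titles give transcript GC content. The square of replicate 2 with DNAJC12 lies lowest for ZNF440, ZNF841, ZNF529 and ZNF146 and highest for ZNF787, ZNF580, ZNF628 and ZNF296, while ZNF792 and ZNF101 show 3 close points in each group.

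The comparison was repeated with each library's trend on GC content taken out. The correction was a loess curve of log2 CPM on transcript GC, used as an offset in the same edgeR fit. It moved the members' median replicate 2 gap to -0.14 with DNAJC12 and -0.13 with the empty vector, and that of all tested genes to 0.04 and 0.01. The members' median standard error fell to 0.25 and that of all tested genes to 0.17. Their median log2 fold change was then -0.06, and that of all tested genes 0.01.

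After GC correction the edgeR test called 16 of 203 members (7.88%), 7 higher and 9 lower with DNAJC12, where it called 20.0% of all tested genes, 11.01% of ZNF genes elsewhere and 26.7% of other protein-coding genes of chromosome 19. Higher were ZNF460, ZNF302, ZNF528, ZNF787, ZNF428, ZNF580 and ZNF358. Lower were ZNF563, ZNF555, ZNF439, ZNF93, ZNF101, ZNF792, ZNF416, ZNF530 and ZNF473. Of these, ZNF302, ZNF528, ZNF563, ZNF416, ZNF530 and ZNF473 were singled out after their values were seen.

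ZNF460 kept its size, with a GC-corrected log2 fold change of 1.28 ± 0.21 (SE) and an edgeR adjusted p of 0.00212. ZNF792 gave -0.67 ± 0.12 (SE) and an edgeR adjusted p of 0.00329. ZNF787 gave 0.59 ± 0.10 (SE) after correction and 0.61 ± 0.31 before it, with edgeR adjusted p of 0.00359 and 0.424. Without overexpression replicate 2 the log2 fold change was 0.27 for ZNF787, 0.32 for ZNF428, 0.30 for ZNF580 and 0.25 for ZNF358, and none of these 4 was called. ZNF302 had 7.67, 2.28 and 7.0 CPM with DNAJC12 and 3.01, 1.89 and 2.82 CPM with the empty vector. Here overexpression replicate 2 lay among the empty vector libraries and the other overexpression libraries above them. Its log2 fold change was 1.14 as counted and 0.90 after correction (edgeR adjusted p = 0.291 and 0.0247). ZNF528 had 21.3, 10.6 and 15.7 CPM with DNAJC12 and 11.3, 7.23 and 8.85 CPM with the empty vector, with edgeR adjusted p of 0.306 as counted and 0.00857 after correction. Its lowest overexpression library was below its highest empty vector library, so the groups overlapped, as they did for ZNF302.

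ZNF563 had the lowest fitted fold change of any tested member. It had 0.801, 0.253 and 0.784 CPM with DNAJC12 and 1.77, 2.06 and 1.17 CPM with the empty vector (GC-corrected log2 fold change -1.54 ± 0.40 SE, edgeR adjusted p = 0.0227). ZNF473, a component of the machinery that processes histone pre-mRNA, had 19.04, 15.3 and 17.9 CPM with DNAJC12 and 28.7, 24.1 and 22.4 CPM with the empty vector. Its GC-corrected log2 fold change was -0.51 ± 0.14 (SE), with an edgeR adjusted p of 0.0285. ZNF530 had 8.77, 9.99 and 10.3 CPM with DNAJC12 and 13.4, 15.0 and 13.8 CPM with the empty vector. The groups did not overlap for any of these 3 genes. None of the 3 was called without overexpression replicate 2 or without both libraries numbered 2.

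Leaving libraries out gave other counts. Without both libraries numbered 2 the edgeR test called 9 members, where 18.7% of all tested genes were called, and 6 of the 9 were among the 16. Without overexpression replicate 2 alone it called 11 members, where 22.5% of all tested genes were called, and 5 of the 11 were among the 16. The shared genes had the same direction in each case. Without any other library it called 0 members, and between 0.168 and 1.68% of all tested genes were called (0.168% without overexpression replicate 3 or empty vector replicate 1, 0.275 and 0.181% without empty vector replicates 2 and 3). DESeq2 size factors and a filter of 1 CPM in 3 libraries also left 0 members, where 1.21 and 1.3% of all tested genes were called. With no filter 2 of 230 members were called, ZNF460 higher and ZNF555 lower, where 2.52% of all genes were called. ZNF460, ZNF302, ZNF528, ZNF101 and ZNF792 were called in all 3 of these settings, that is with the correction, without both libraries numbered 2 and without overexpression replicate 2.

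**Figure D4:**
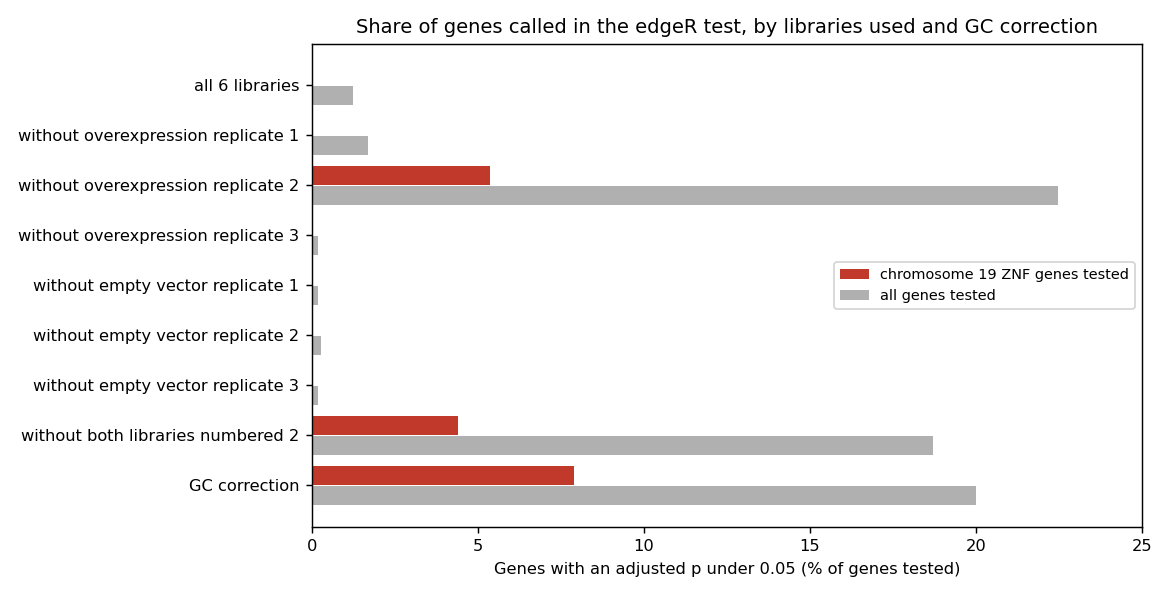
Share of tested genes with an adjusted p under 0.05 in the edgeR test (%, horizontal axis from 0) by the libraries used and the GC correction (rows), for the chromosome 19 ZNF genes (red) and all tested genes (grey). Members were called in the rows without overexpression replicate 2, without both libraries numbered 2 and with GC correction, always at a lower share than all genes (7.88% against 20.0% with the correction).

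Along the chromosome the members fall into runs, a new run starting where the distance to the next member exceeds 1000000 bases. There were 16 runs, and 7 of them held at least 10 members and 228 of the 249 in all. Coordinates are on GRCh38, and the fold changes within runs are described without a test, since neighbours share libraries and sequence. The run at chr19:11483427-12640098 held 26 members, 17 of them tested, and 14 of these had a log2 fold change below 0, with a median of -0.29. Its lower members include ZNF439 and ZNF563. After GC correction 15 of the 17 lay below 0, with a median of -0.49. The correction called 2 of the 17, both lower, where it called 20.0% of all tested genes. Over all 17 alternative settings the median of this run ran from -0.53 to -0.11, staying below 0, and it was weakest without overexpression replicate 2.

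The run at chr19:36182060-37817300 went the other way as counted. It held 26 members, 23 of them tested. Of these, 20 were above 0 and the median log2 fold change was 0.32. ZNF146 was its most abundant member. After GC correction 16 of the 23 were above 0, the median was 0.14 and no member was called. Without overexpression replicate 2 its median was 0.60 and without overexpression replicate 1 it was -0.04, so its direction depended on overexpression replicate 1. Its median replicate 2 gap was -1.08 with DNAJC12 and -0.75 with the empty vector.

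The other 5 long runs had median log2 fold changes from 0.00 to 0.16, and leaving out 1 library gave values on both sides of 0 for each of them. The run at chr19:19668796-24129961, with 37 members, held the lowest share of tested members (24 of 37, 64.9%) and the lowest level, a median of 0.215 FPKM over all its members. It contains ZNF93, ZNF101 and ZNF431, and its median log2 fold change was 0.16 as counted and -0.01 after GC correction. The run at chr19:51571298-53580269, with 40 members, 35 of them tested, had medians of 0.03 and -0.11 and the most negative median replicate 2 gap with DNAJC12 of the 7, at -1.15. ZNF880, its most abundant member, had 10.5, 12.8 and 13.4 CPM with DNAJC12 and 11.5, 8.34 and 9.17 CPM with the empty vector, and the groups overlapped. The run nearest the end of the long arm, chr19:55476332-58481230, held the most members, 59, of which 54 were tested. It contains ZNF787, ZNF580, ZNF581, ZNF524, ZNF628, ZNF446 and ZNF460. Its median transcript GC was 48.3% and its median level 1.45 FPKM over all its members, both the highest of the 7, and its median log2 fold change was 0.10 as counted and 0.08 after correction. The runs at chr19:7069444-9793180 and chr19:43525497-45076588 had medians of 0.00 and 0.04 as counted and contain ZNF358 and ZNF428.

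**Figure D5:**
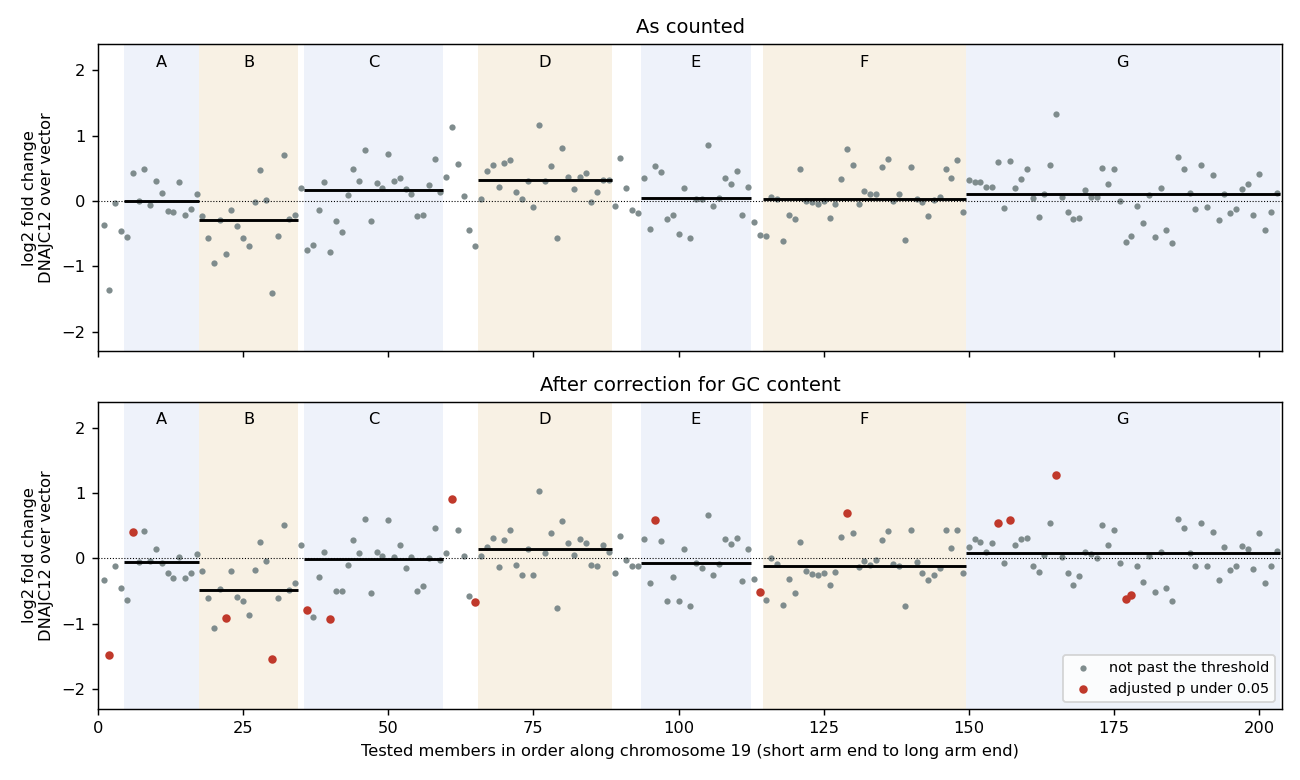
Log2 fold change (overexpression over empty vector, vertical axis) of the 203 tested chromosome 19 ZNF genes in their order along the chromosome (horizontal axis), as counted (top) and after GC correction (bottom). Shading and letters A to G mark the 7 runs of at least 10 members, black lines their medians, and red points members with an adjusted p under 0.05. Run B lies below 0 in both panels (medians -0.29 and -0.49), run D moves toward 0 after correction (0.32 and 0.14), and no member is red as counted against 16 after correction.

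The partners through which KRAB zinc finger proteins silence chromatin were read in the same libraries. A list of 24 names was taken for the TRIM28 and SETDB1 machinery, heterochromatin binding, NuRD, HUSH and maintenance methylation, among others, of which 23 were found in the tables, FAM208A standing under that older symbol for TASOR, and all 23 were tested. The edgeR test called 0 of 23, where 1.25% of all tested genes were called, and DESeq2 called 0, where 3.89% were. At an unadjusted edgeR p under 0.05 there were 0, where 14.1% of all tested genes were. The median log2 fold change of the 23 was 0.03. TRIM28, the co-repressor that KRAB domains bind, had 440, 869 and 532 CPM in overexpression replicates 1 to 3, and 447, 600 and 484 CPM in empty vector replicates 1 to 3. Replicate 2 was the highest library of both groups for this GC-rich gene (60.9%). SETDB1 had 16.8, 17.6 and 14.8 CPM with DNAJC12 and 18.2, 14.9 and 15.8 CPM with the empty vector, a log2 fold change of 0.01 ± 0.23 (SE). After GC correction 6 of the 23 were called, where 20.0% of all tested genes were. Among them, TRIM28 and the SETDB1-binding ATF7IP were higher, and the heterochromatin protein CBX3, the histone-binding RBBP7 and the HUSH subunit PPHLN1 were lower. TRIM28 was just under the threshold (edgeR adjusted p = 0.0490), its groups overlapped, and without overexpression replicate 2 its uncorrected log2 fold change was -0.07. The groups also overlapped for ATF7IP, CBX3 and PPHLN1, but not for RBBP7. With a replicate block instead of the correction, 1 partner was called higher and 0 lower, where 13.3% of all tested genes were called. Without both libraries numbered 2 it was also 1 higher and 0 lower, where 18.7% of all tested genes were called. The corrected log2 fold changes of the 6 ran from -0.47 to 0.57, and ATF7IP gave the highest, with an edgeR adjusted p of 0.0188. The called partners named here, other than TRIM28, were chosen after their values were seen.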

How the data were processed

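RNA sequencing of 6 MDA-MB-231 libraries, 3 overexpression and 3 empty vector, was analysed from tables deposited by the authors, which gave counts of reads per gene and FPKM per gene and library. HISAT2 2.0.5 and hg19 are named in the submitters' processing notes. The coordinates of all 58735 genes equal GENCODE 29 on GRCh38, so GRCh38 is given. The sources used here name neither the counting program nor its strand setting. The depth behind the deposited FPKM was 0.854 to 1.10 times the count total. FPKM served for levels between genes and CPM for levels between libraries. As exceptions, the libraries of ZNF787 and the ranges of VIM and ERBB2 are given in FPKM.

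In R 4.3.3, edgeR 4.0.16 tested the counts by quasi-likelihood (TMM, filterByExpr with minimum count 10 and total 15, robust), with Benjamini-Hochberg adjustment over 14520 genes and a threshold of 0.05. The CPM gap used a prior count of 2 and the GC correction a loess span of 0.3. Alternatives were DESeq2 1.42.0, limma 3.58.1 on log2(FPKM + 1) and log2(FPKM + 0.1), with a filter of 0.5 FPKM in 3 libraries or none, other scalings and filters, a replicate block, and left-out libraries. The fit was tested on simulated data. With 3 libraries a group, the smallest exact permutation p is 0.1, so no such test was run.

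The members and lists were chosen with earlier results of these data known. Genes named were DNAJC12, the 6 members highest in FPKM, and the 5 largest and 5 smallest fold changes with no overlap and at least 2 CPM in the higher group. Also named were the 3 lowest and 3 highest replicate 2 gaps with DNAJC12 at a mean of at least 2 CPM, the most abundant member of each long run, TRIM28 and SETDB1. Some results that met the rule or a list are not reported here. Linkers and finger units were read from GENCODE 29 transcripts.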

Additional observations from a re-analysis of the deposited data

How the results depend on the processing

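The count of called members, 0 in the main edgeR test, was 16 with GC correction, 9 without both libraries numbered 2, 2 with no filter and 1 with the DESeq2 Wald test. Leaving out each library in turn gave 0 to 11, and the 11 came without overexpression replicate 2. The replicate block gave 11 (5.42% of members, where 13.3% of all tested genes were called), and 17 with GC correction (8.37%, against 22.9%). Over all tested genes, deviations from the group means correlated at 0.45, 0.58 and 0.03 for numbers 1, 2 and 3. Overexpression replicates 1 and 2 correlated best with the empty vector library of their own number (next best 0.14 and -0.12). Overexpression replicate 3 correlated best with empty vector replicate 1 (0.22). Because number 3 did not match over all tested genes, the numbers were not taken to pair libraries. Over members alone, each overexpression replicate correlated best with the empty vector library of its own number (0.46, 0.47 and 0.09). For overexpression replicate 3 the next best was 0.04, with empty vector replicate 1. Empty vector replicate 3 correlated better with overexpression replicate 1 (0.15). Whether the libraries are paired was not tested. Of the 11 members called under the block, 9 were among the 16.

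Of 27 named genes other than DNAJC12, 10 changed sign in at least 1 of 17 alternatives, none of them called in that alternative. Without both libraries numbered 2 the log2 fold change was 0.18 for ZNF440, 0.24 for ZNF841, -0.24 for ZNF446 and -0.11 for SETDB1, and with no filter it was -0.013 for SETDB1. Over the libraries left out in turn it ran from -0.43 to 0.05 for ZNF581, -0.026 to 0.49 for ZNF524, -0.76 to 0.15 for ZNF440 and -0.53 to 0.42 for ZNF841. It ran from -0.23 to 0.45 for ZNF296, -0.083 to 0.55 for ZNF628, -0.27 to 0.36 for ZNF446, -0.11 to 0.85 for ZNF146, -0.07 to 0.45 for TRIM28 and -0.073 to 0.092 for SETDB1. The cause was not tested. A gap of 500000 bases gave 8 long runs instead of 7.

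The members' median log2 fold change ran from -0.14 to 0.23 over the alternatives. The median deviation of members in single libraries had a pooled SD of 0.35 within groups. That is a spread of single libraries and not of differences between group means. Depth limits members more than most genes, since the median tested member had 3.53 CPM and the median tested gene 15.6 CPM. A floor of 3 counts was 0.159 to 0.167 CPM, which covers counting error only.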
